A study of Mus musculus with 2 samples.

Results

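Granular keratinocytes are the last living cells of the epidermis, the layer just below the cornified surface. They were chosen here by their transcripts: a droplet was counted as a granular keratinocyte when Flg, Flg2, Hrnr and Cdsn together made up at least 10 of every 10000 of its unique molecular identifiers (UMIs) and at least 2 of these 4 genes were detected. A UMI marks 1 captured transcript, so copies made by PCR are counted once. Among 62289 droplets with 200 to 8000 genes and at most 10% mitochondrial UMIs, 974 met the rule, 229 of 42244 in the control library and 745 of 20045 in the TP library. The levels of the 4 rule genes chose these cells, so their presence is not a finding, and their levels are given as a description.

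Both libraries came from dorsal skin of male C3H/HeN mice aged 7 weeks when shaved and 9 weeks at harvest. TP mice received testosterone propionate, an androgen ester, under the skin at 0.5 mg per day as a model of androgenetic alopecia, and control mice received vehicle. Skin of 15 mice per group was pooled before dissociation, and each pool gave 1 library of droplets made with a 3′ assay that reads polyadenylated RNA. A group treated with TP and an antibody is not analysed here. With 1 library per condition there is no replicate, no test was made and no p-value is given. Values in parentheses after a share, level or ratio are 95% intervals of counting error only, and they do not cover differences between mice, pools or libraries. Those of levels and of ratios of levels also leave out the spread between cells. They are too narrow where a few cells hold most of the UMIs of a gene.

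As background, a keratinocyte moves from the basal layer through the spinous layer to the granular layer before it dies and becomes part of the cornified surface. In the granular layer it stores profilaggrin (Flg) in keratohyalin granules, makes loricrin (Lor) and other precursors that transglutaminases link into the cornified envelope, secretes lipids from lamellar bodies, and makes the kallikreins and corneodesmosin (Cdsn) that govern shedding. Flg, Flg2, Hrnr and Lor lie in the epidermal differentiation complex, a gene cluster on chromosome 3 that also holds the small proline-rich genes.

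Sequence upstream of 3 of these genes is shown because, by summed level over all members, Flg and Lor differed most between the libraries among the marker genes while Flg2 did not. Flg and Flg2 are rule genes, and their contrast changed with the cells compared, as given below. The 250 bases before each start were taken from RefSeq on GRCm38.p6, the build of the mm10 gene models, whose reference strain is C57BL/6J and not C3H/HeN. Capitals mark TGANTCA, searched on both strands, where it reads the same. It is a loose form of the site that AP-1 factors such as Fos and Jun prefer, which is TGAGTCA, or TGACTCA on the other strand. Flg is at chr3:93273296-93273545 on the plus strand, Flg2 at chr3:93197023-93197272 on the plus strand and Lor at chr3:92083143-92083392 on the minus strand, each written 5′ to 3′.
Flg: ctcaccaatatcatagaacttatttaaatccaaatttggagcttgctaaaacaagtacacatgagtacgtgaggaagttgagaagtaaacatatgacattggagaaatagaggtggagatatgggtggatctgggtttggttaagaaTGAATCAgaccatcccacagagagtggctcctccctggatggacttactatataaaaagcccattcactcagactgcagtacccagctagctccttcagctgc
Flg2: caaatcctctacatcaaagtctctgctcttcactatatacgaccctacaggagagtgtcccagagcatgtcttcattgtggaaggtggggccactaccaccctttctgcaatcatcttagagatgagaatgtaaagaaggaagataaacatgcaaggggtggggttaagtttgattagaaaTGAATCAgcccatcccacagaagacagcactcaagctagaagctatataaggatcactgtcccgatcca
Lor: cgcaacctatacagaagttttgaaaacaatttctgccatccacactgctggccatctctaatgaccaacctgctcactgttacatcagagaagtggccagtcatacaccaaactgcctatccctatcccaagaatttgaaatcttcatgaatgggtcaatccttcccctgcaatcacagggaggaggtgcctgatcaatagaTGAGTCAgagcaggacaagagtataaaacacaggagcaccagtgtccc
Each window holds 1 match, which begins 103 bases before the start of Flg, 69 before that of Flg2 and 48 before that of Lor, and the Hrnr window holds none. Of 32851 windows of 250 bases in the table, 2217 (6.75%) hold the loose form and 1466 (4.46%) the preferred one. Of the 3 windows shown, Lor alone holds the preferred form. The loose form is present in 5 of 7 windows of the filaggrin family, 7 of 11 of the cornified envelope precursors and 9 of 13 of the small proline-rich genes, and in none of 20 of the late cornified envelope genes, and the preferred form in none, 6, 8 and none of these windows. A match is a description of the letters and says nothing about binding.

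The label was checked against markers that the rule did not use. Lor, a major protein of the cornified envelope, had 216 UMIs per 1000000 UMIs (CPM) in control granular keratinocytes and 787 CPM in TP ones, against 6.15 and 23.1 CPM in spinous keratinocytes of the same libraries. Spink5, the inhibitor of epidermal kallikreins, had 2959 and 3747 CPM, against 533 and 782 CPM in spinous keratinocytes. Spinous keratinocytes were droplets outside the granular group with Krt1 and Krt10 at 50 or more per 10000 UMIs, and numbered 5349 and 6871. Krt1 and Krt10, the keratins of all suprabasal layers, reached that level in 91.7% of control and 97.1% of TP granular keratinocytes. The summed level of the 6 spinous markers came to 43678 CPM in control and to 65235 CPM in TP.

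RNA of other cell types was also present. Inner root sheath keratins, which form the sheath around the hair shaft, were at 20 or more per 10000 UMIs in 40 control members (17.5%) and 37 TP members (4.97%). After each cell was thinned to 1000 UMIs, Krt71 of the inner root sheath was seen in 39.3% of control members and in 41.2% of control fibroblasts, and in 9.81% and 7.97% in TP, so that its share in granular keratinocytes was at or near that of cells that should lack it. The summed level of 6 fibroblast markers came to 150 CPM in control members and to 166 CPM in TP members, against 726 and 4122 CPM over all kept cells. The summed level of 4 melanocyte markers came to 262 CPM in control members and to 30.7 CPM in TP members, with Dct at 145 and 9.85 CPM. Of 4 endothelial markers 2 were detected in control and 3 in TP, at a sum of 2.01 and 2.58 CPM, with Cdh5 at 0 in both libraries. The 4 red blood cell markers summed to 20.1 and 24.9 CPM, above the 5.82 and 11.2 CPM over all cells, nearly all of it Hba-a1, while Hbb-bs and Hbb-bt were at 0 in both. The 6 immune markers summed to 81.9 CPM in control members against 54.6 CPM over all control cells, and to 54.0 against 161 CPM in TP, with Cd74 at 68.4 and 44.9 CPM in members. The 6 upper hair follicle markers, 3 of which (Cst6, Defb6 and Krt17) also stand in the role lists below, summed to 1352 CPM in control members and to 2658 CPM in TP members, against 538 and 1672 CPM over all cells. Krt79 of that list had 135 and 272 CPM, and was at 5 or more per 10000 UMIs in 4.37% and 6.04% of members. The 4 smooth muscle markers summed to 7.04 CPM in control members and 22.9 CPM in TP members, against 55.1 and 135 CPM over all cells. The part of these cell types in the results below was not tested. A doublet caller marked 18 control members (7.86%) and 126 TP members (16.9%). Both libraries shared 220 barcode sequences among kept cells, 1 of them a granular keratinocyte in both.

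Of the control cells 0.542% (0.474 to 0.617) were granular keratinocytes, against 3.72% (3.46 to 3.99) in the TP library, which gave a ratio of 6.86 (5.91 to 7.99). Spinous keratinocytes were 12.7% and 34.3% of the cells, and basal keratinocytes, with Krt5 and Krt14 but little Krt1 and Krt10, were 2.52% and 1.77%. As a share of these 3 epidermal groups together, granular keratinocytes were 3.45% (3.02 to 3.92) of control and 9.35% (8.72 to 10.0) of TP epidermal cells, with a ratio of 2.71 (2.34 to 3.16). A share of droplets depends on how many cells of every other type were released and captured, so more granular cells and fewer of the others cannot be told apart. The choice of basal cells has a limit, since it asks for little Krt1 and Krt10. Fibroblasts, which should lack both, had Krt1 at 304 and 773 CPM and Krt10 at 687 and 1544 CPM in control and TP. The part of free RNA in the basal share and levels, and in ratios of epidermal shares, was not tested.

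Depth moved with this result. Control cells had a median of 2162 UMIs and TP cells 5166, and the median of granular keratinocytes was 7655 in control and 18893 in TP. Among cells of 5000 to 20000 UMIs, 139 of 5645 control cells (2.46%) and 310 of 8805 TP cells (3.52%) were granular keratinocytes, a ratio of 1.43 (1.17 to 1.76), and as a share of epidermal cells of that depth the ratio was 1.14 (0.931 to 1.40). Above 20000 UMIs the shares were 8.89% (4.68 to 15.0) of 135 control cells and 24.1% (22.0 to 26.4) of 1455 TP cells, and below 2000 UMIs they were 0.0793% and 1.10%. When every cell was thinned to 1000 UMIs before the rule was applied, which leaves out 5362 control and 891 TP cells, 124 of 36882 control cells (0.336%) and 460 of 19154 TP cells (2.40%) met it, a ratio of 7.14 (5.85 to 8.78). The ratio was thus highest in the shallowest and the deepest cells, and between 10000 and 20000 UMIs its interval held 1 (0.881, 0.666 to 1.18). More RNA per cell and deeper sampling cannot be told apart here.

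**Figure D1:**
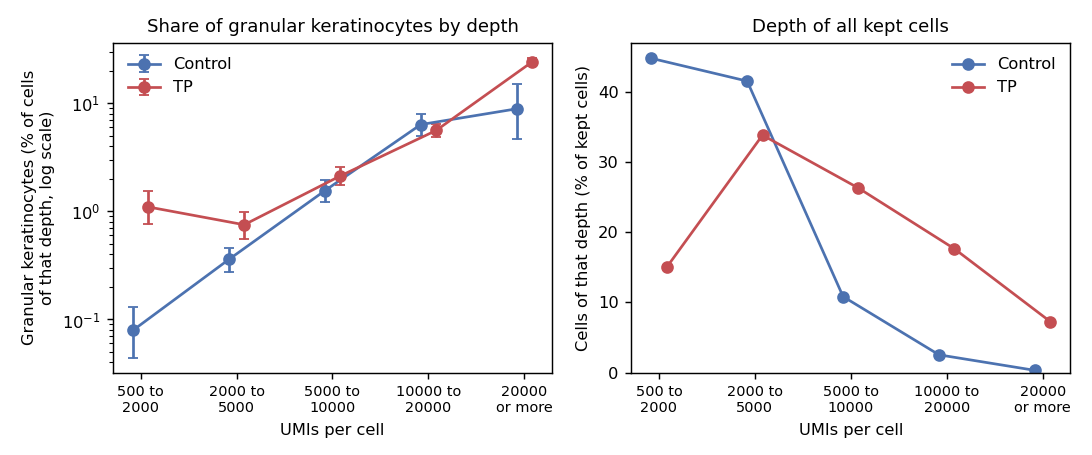
Left, share of granular keratinocytes (%, log scale) among kept cells of each depth (UMIs per cell) in control and TP, with 95% intervals of counting error. Right, share of all kept cells that had this depth. The 2 libraries overlap between 5000 and 20000 UMIs, TP lies higher below 5000 and above 20000, and 7.26% of TP cells against 0.320% of control cells had 20000 UMIs or more.

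The cells near the limit were few. In control 31 members had 10 to 12 per 10000 UMIs of the rule genes and 43 other cells with at least 2 of the genes had 8 to 10, and in TP these numbers were 63 and 112. Lor stood at 19.8 CPM just inside and 16.5 CPM just outside the limit in control, and 89.9 and 45.1 CPM in TP. A further 167 control and 128 TP cells reached the level with only 1 of the genes detected, at medians of 817 and 848 UMIs, and were not counted. The sum of the 4 genes had a median of 20.3 per 10000 UMIs in control members and 27.2 in TP members. Members with 80 or more per 10000 were 10 of 229 (4.37%, 2.11 to 7.88) in control and 105 of 745 (14.1%, 11.7 to 16.8) in TP.

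Over all 10297 genes with at least 50 UMIs in the granular keratinocytes of both libraries together, 162 (1.57%) exceeded control by 2-fold or more in TP and 939 (9.12%) lay 2-fold or more below it. Calls, log2 ratios and medians use summed levels after 1 UMI was added in each library, while the ratios printed with an interval are those of the levels without it, so that they are larger for genes with few control UMIs. Granular keratinocytes held 1989602 UMIs in control and 15526523 in TP, so that 1 UMI is worth 0.503 CPM in control and 0.0644 CPM in TP, and the added UMI lowers the ratio of rare genes. Of genes with 50 to 100 UMIs 32.8% were called lower, and of those with 1000 or more 0.741%, where 52 of 2971 genes were higher and 22 lower. The median log2 ratio of all measured genes was -0.29, and lists are read against it below. It was -0.72 among genes with 50 to 100 UMIs and -0.08 among those with 1000 or more. Lists of abundant genes thus lie less far above genes of their own abundance than above -0.29. Scaling by edgeR's TMM factors moved the median of all measured genes to 0.10 and gave 458 higher and 307 lower genes, so that the balance of higher and lower genes turned with the scaling. The limit of 50 UMIs is met mostly through TP, which holds most of the UMIs. In the lists below, 10 of the genes called higher (Rptn, Sprr2d, Sprr2h, Krt6a, Krt6b, Serpinb6c, Slpi, Lipk, Il1f6 and Il1f8) had at most 3 UMIs in control and were measured only because they were high in TP, so counts and medians of their lists follow in part from the limit and are given as a description. Il1b, S100a8, Heyl and Nr3c2, called lower, had fewer than 50 UMIs in TP and reached the limit only with those of control. Counts of lower genes in their lists follow in part from the limit too. The interval of the ratio, which leaves out the spread between cells, lay beyond 2-fold for 44 of the higher and 130 of the lower genes.

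Among the filaggrin family, large repeat-rich proteins of the keratohyalin granule, Flg was higher in TP and Flg2 was not. Flg (chr3:93273546-93293689), which gives profilaggrin and from it the filaggrin that bundles keratins, stood at 486 CPM (455 to 517) without TP and at 1692 CPM (1672 to 1713) with it, which is a ratio of 3.49 (3.27 to 3.72). Flg2 (chr3:93197273-93221377), a filaggrin relative, stood at 802 CPM (763 to 842) without and 707 CPM (694 to 721) with TP, which is a ratio of 0.882 (0.837 to 0.930). By summed level Flg2 was above Flg in control and below it in TP, while the middle TP cell, as given below, still held more Flg2 than Flg. Hrnr, hornerin, had 1019 and 1599 CPM, a ratio of 1.57 (1.499 to 1.64). Of 6 measured members of this list 2 were called higher and none lower, with a median log2 ratio of 0.25, which says little about the list since Flg is a rule gene and Rptn rested on 2 UMIs in control (ratio 3.65, 0.966 to 30.9).

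Flg was uneven among the cells. The middle control cell had 0.711 Flg UMIs per 10000 and the middle TP cell 2.86, while the 10% of cells with the most Flg held 63.3% of its UMIs in control and 67.9% in TP. The highest cell had 148 per 10000 in control and 882 in TP. Flg2 was spread more widely, with middle cells at 6.13 and 3.69 per 10000 and 39.1% and 46.8% of its UMIs in the top 10% of cells. After thinning to 1000 UMIs, Flg was seen in 25.9% (20.3 to 32.2) of control and 40.5% (36.9 to 44.1) of TP members, Flg2 in 46.0% (39.3 to 52.8) and 37.2% (33.7 to 40.8), while fibroblasts gave at most 0.913% for either gene. Without thinning, Flg was seen in 52.4% and 73.8% of members and Flg2 in 88.7% and 79.7%.

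The Flg difference depended on where a cell stood in the rule's own range. Between 10 and 20 per 10000 of the rule genes Flg stood at 237 CPM without and 213 CPM with TP, a ratio of 0.897 (0.783 to 1.03). Between 40 and 80 it was 909 and 1869 CPM, a ratio of 2.06 (1.79 to 2.38), and at 80 or more it was 4181 and 10649 CPM, a ratio of 2.55 (2.24 to 2.90). The range of 80 or more rests on 10 control and 105 TP cells. Flg2 was lower in TP in all 4 ranges, with ratios from 0.531 to 0.691. Since these genes make up the sum that sets the range, the values within a range are tied to each other. With the ranges weighted as in control, the log2 ratio of Flg was 0.76 in place of 1.80 and that of Flg2 -0.69 in place of -0.18.

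**Figure D2:**
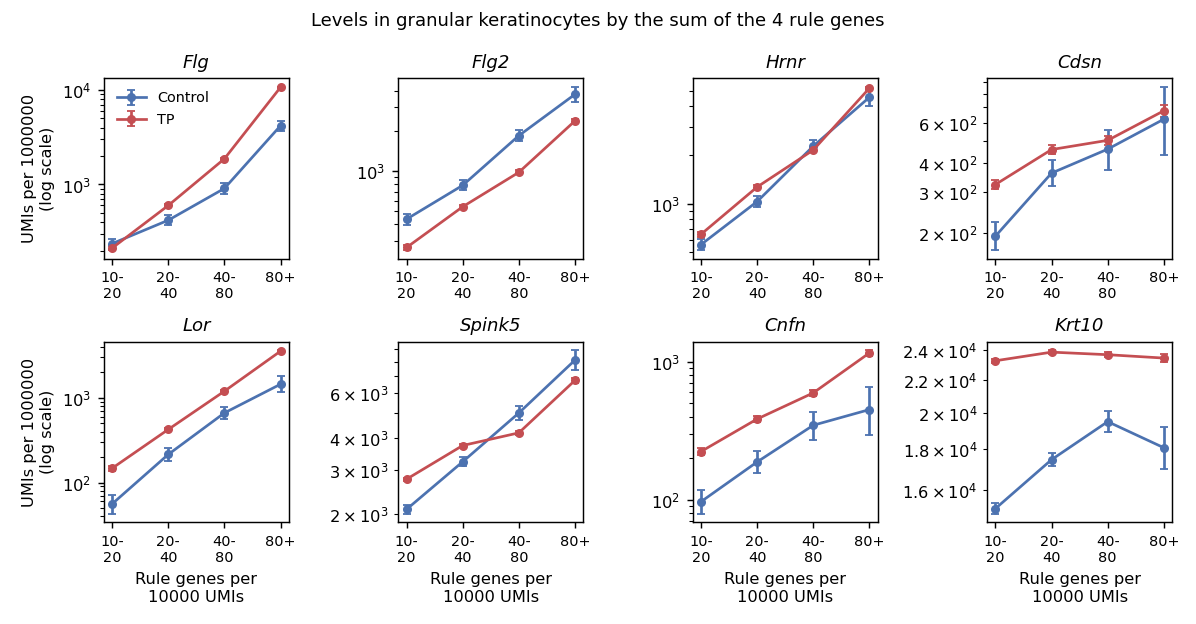
Levels (CPM, log scale) of 8 genes in granular keratinocytes of control and TP, by the sum of the 4 rule genes per 10000 UMIs of the cell, with 95% intervals of counting error. The Flg ratio goes from 0.897 in the lowest range to 2.55 in the highest, Flg2 is lower in TP in every range, Lor and Cnfn are higher in TP in every range, and Spink5 crosses from a ratio of 1.32 in the lowest range to 0.832 in the highest.

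In the shared range of 5000 to 20000 UMIs the differences in the filaggrin family were larger. Depth was not fully matched there, since 71 of 139 control members and 112 of 310 TP members had under 10000 UMIs. In members of 5000 to 20000 UMIs Flg had 477 CPM in 139 control cells and 3232 CPM in 310 TP cells, a ratio of 6.77 (6.28 to 7.32). Hrnr had 1015 and 2226 CPM, a ratio of 2.19 (2.08 to 2.32). Flg2 turned from lower to higher there, with 786 and 914 CPM and a ratio of 1.16 (1.09 to 1.24), so that its direction differed between these sets of cells.

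Cornified envelope precursors, the proteins that are linked below the cell membrane, had a median above that of all genes. Of 15 measured genes 6 were called higher and none lower, 12 had a log2 ratio above 0, and the median was 0.56. Lor (chr3:92080271-92083142), not used by the rule, had 216 CPM (196 to 237) in control against 787 CPM with TP, for a ratio of 3.65 (3.31 to 4.03). Lor was seen in 12.5% (8.47 to 17.6) of thinned control members and 28.5% (25.2 to 31.9) of thinned TP members, above the 0.470% and 1.83% of fibroblasts. Without thinning it was seen in 40.6% and 69.3%. Its ratio was above 1 in each of the 4 ranges of the rule, from 1.81 to 2.64, and it was 4.61 (4.11 to 5.17) at matched depth.

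Cnfn, cornifelin, had 164 and 442 CPM, a ratio of 2.69 (2.41 to 3.01). Nccrp1 had 73.9 and 182 CPM, a ratio of 2.46 (2.09 to 2.93). Crct1, a small cysteine-rich protein encoded in the epidermal differentiation complex, had 4.02 CPM from 8 UMIs in control against 66.5 CPM with TP, for a ratio of 16.6 (8.37 to 38.4). The most abundant genes of the list differed less. Krtdap, a secreted protein of differentiating keratinocytes, had 11761 and 16841 CPM, and Sbsn, suprabasin, had 7557 and 10979 CPM, log2 ratios of 0.52 and 0.54.

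Small proline-rich proteins are flexible cross-bridges of the envelope that are made in quantity in stressed and healing epidermis. Of 13 genes in the files 4 reached 50 UMIs, and these were called higher, but Sprr2d and Sprr2h passed that filter only through their UMIs in TP, so the count of called genes says little about the list. Sprr1a had 31.2 CPM (23.9 to 39.95) in control against 209 CPM with TP, for a ratio of 6.72 (5.23 to 8.79), and Sprr1b had 11.6 and 137 CPM, a ratio of 11.8 (7.87 to 18.7). Sprr2d rested on 2 UMIs in control (ratio 4.61, 1.23 to 38.8), and Sprr2h, with no UMI in control, had 77 with TP and was at least 3.29-fold higher against the floor of 3 counts per library, with an interval of the ratio that begins at 2.61. The median log2 ratio of the 4 was 3.02, or 2.22 with Sprr2h at its bound, 1.498 with a pseudocount of 0.1 per 10000 and 0.70 over genes with at least 1 UMI. The other 9 genes of the list in the files had too few UMIs, and the Sprr2 genes, measured or not, are near copies of each other whose shared reads may be lost. None of 21 late cornified envelope genes, which mark the very last step before cornification, reached 50 UMIs.

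Stress keratins, which replace the resting keratins in wounded or rapidly renewing epidermis, had a summed level 2.38-fold higher in TP, against 8.02-fold for the small proline-rich genes. Krt16 had 5.03 CPM from 10 UMIs in control against 167 CPM from 2586 UMIs with TP, for a ratio of 33.1 (17.99 to 69.2). Krt6b had 0 UMIs in control, which allows up to 1.51 CPM, and 26.3 CPM in TP, at least 17.5-fold higher against that floor of 3 counts per library, while the interval of its ratio begins at 14.1. Krt6a had 1 UMI in control against 333 with TP, for a ratio of 42.7 (7.61 to 1690). Its level was below that over all kept cells in both libraries, 0.503 against 3.55 CPM in control and 21.45 against 38.5 CPM in TP. The part of free RNA in the Krt6a level was not tested. Krt6a and Krt6b are so alike that reads of either may be lost from the counts. Krt17, also an upper hair follicle marker, had 300 and 513 CPM, most of the summed level of these keratins in both libraries. The median log2 ratio of these 4 genes was 4.67, or 4.27 with Krt6b at its bound, 1.72 with a pseudocount of 0.1 per 10000 and 2.21 when cells were thinned before the rule. The value of 4.67 lies midway between those of Krt16 and Krt6a. Krt6a and Krt6b met the limit only through TP, so the median follows in part from the limit.

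These keratins were also higher in TP in spinous keratinocytes. In spinous keratinocytes Krt16 had 24.5 CPM in control against 285 CPM with TP, for a ratio of 11.6, and Krt6b had 1.23 and 35.9 CPM. Over all kept cells Krt16 had 7.91 and 156 CPM, and in fibroblasts 2.78 and 35.1 CPM, so its level in TP granular keratinocytes was close to that over all cells. In control granular keratinocytes it was below the level over all cells and above that of fibroblasts. The part of free RNA in the level was not tested. With the profile of all cells subtracted, the log2 ratio of Krt16 was 5.09. That profile was scaled by the fibroblast transcripts in members, to 20.5% in control and 4.04% in TP. Since more was taken from control, this value cannot show how much of the Krt16 difference is free RNA.

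The 7 suprabasal keratins summed to 30003 CPM in control and 42605 CPM in TP. Krt10 had 16467 and 23571 CPM, a log2 ratio of 0.52, and Krt77 had 8991 and 12068 CPM, a log2 ratio of 0.42. Krt2, the keratin of the uppermost spinous and granular cells, had 56.8 and 132 CPM, a ratio of 2.32 (1.92 to 2.83), and was the only one of 7 called. The median of the 7 was 0.52. Krt15, a keratin of basal and bulge cells, had 459 CPM (430 to 490) in control against 170 CPM with TP, for a ratio of 0.370 (0.343 to 0.400), while Krt14 had 872 and 856 CPM and Krt5 599 and 412 CPM. Over the alternatives run the log2 ratio of Krt15 ranged from -2.32 to -0.41. Krt15 was also lower in TP in spinous keratinocytes (681 and 373 CPM, ratio 0.548) and in basal ones (2707 and 1980 CPM), and was 391 and 505 CPM over all kept cells. The choice of basal cells carries the limit given with their share.

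Proteases and the enzymes that break down filaggrin held 7 genes called higher and none lower among 21 measured, with a median log2 ratio of 0.33. Klk6 had 3.02 CPM from 6 UMIs in control against 47.8 CPM with TP, for a ratio of 15.9 (7.25 to 43.3). Klk9 had 6.03 and 36.7 CPM, a ratio of 6.09 (3.46 to 11.9), and Klk13 had 5.53 and 14.5 CPM. Kallikreins are serine proteases that cut the links between surface cells.

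Klk7, the kallikrein of the list with the highest level, had 618 and 1349 CPM, a ratio of 2.18 (2.06 to 2.32), and was above 1 in each of the 4 ranges of the rule, from 1.49 to 2.10. Asprv1, the protease that processes profilaggrin, had 352 and 905 CPM, a ratio of 2.57 (2.39 to 2.78). Hal, which turns histidine from filaggrin into urocanic acid, had 881 and 1056 CPM, a log2 ratio of 0.26.

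Protease inhibitors had a median log2 ratio of 0.64, with 5 of 16 measured genes called higher, 2 of which, Slpi and Serpinb6c, met the limit only through TP. Spink5 had 2959 and 3747 CPM, a log2 ratio of 0.34, and Cst6, cystatin M/E and also an upper hair follicle marker, had 856 and 1749 CPM, a ratio of 2.04 (1.95 to 2.15). Wfdc21 had 203 and 428 CPM, a ratio of 2.11 (1.91 to 2.34). Wfdc12 rested on 6 UMIs in control (ratio 2.88, 1.29 to 7.995), and Slpi and Serpinb6c on 3 and 1, with ratios of 3.29 (1.08 to 16.3) and 7.05 (1.21 to 283). Slpi was lower in TP among cells of 5000 to 20000 UMIs, at a log2 ratio of -0.76, and Serpinb6c was lower when cells were thinned before the rule.

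Of 12 measured desmosome and corneodesmosome genes none was called higher, and Cdsn, a rule gene, had 292 and 438 CPM, a log2 ratio of 0.59. Dsp and Perp, the most abundant, had log2 ratios of -0.04 and 0.57, and Dsg2, the isoform of less differentiated cells, was called lower with 17.6 and 8.50 CPM. The log2 ratio of Dsg2 ranged from -1.98 to -0.08 over the alternatives run. Of 27 genes of barrier lipid synthesis 2 were called higher, Smpd1 (39.2 and 85.7 CPM, ratio 2.19, 1.74 to 2.78), the acid sphingomyelinase, and Lipk, which rested on 3 UMIs in control and met the limit only through TP (ratio 6.45, 2.17 to 31.6). Elovl4 and Elovl1, which lengthen fatty acids, had log2 ratios of 0.43 and 0.87, and the list's median was 0.39. None of 17 junction genes was called, and Gjb5 and Cdh1 had log2 ratios of 0.50 and -0.16.

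Of the cross-linking enzymes, differentiation factors and immediate-early genes measured, 1 was called, Fosl1. Tgm1 and Tgm5, transglutaminases that build the envelope, had 45.7 and 51.4 CPM and 11.6 and 20.6 CPM, and none of the 4 measured genes of the list was called. None of 20 differentiation transcription factors was called in either direction, their median was 0.11, and Rora and Klf4 had log2 ratios of 0.20 and 0.49. Of 12 immediate-early genes Fosl1, an AP-1 subunit, was called with 5.03 and 31.6 CPM, a ratio of 6.28 (3.39 to 13.2), and was 6.15 and 60.5 CPM in spinous keratinocytes. Fos and Jun, the most abundant, had log2 ratios of 0.18 and 0.16.

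Of 7 measured genes of nuclear and organelle breakdown Trex2, a nuclease of dying keratinocytes, was called higher with 33.2 and 83.3 CPM, a ratio of 2.51 (1.96 to 3.27), and the list's median was 0.29. Lmna and Bnip3l had log2 ratios of 0.29 and 0.30. Dnajb1, with 174 and 352 CPM, was the 1 gene called of 11 heat shock genes, whose median was 0.06, while Hspb1 and Hspa8 had log2 ratios of 0.61 and 0.30.

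Of 9 measured alarmins and antimicrobials 2 were called higher and 2 lower, with a median log2 ratio of 0.52 and 6 above 0. Of 12 interleukin-1 family genes 2 were called each way, the higher ones only measured through TP, with a median of 0.11 that ranged from -0.05 to 0.64 over the alternatives run. Defb1 had 37.2 and 80.8 CPM and Defb6 53.3 and 111 CPM, both epithelial defensins called higher, Defb6 being also an upper hair follicle marker, while the alarmins S100a8 and S100a9 were called lower from 16 and 27 UMIs in control. S100a9 was higher in TP in spinous keratinocytes, at 1.02 and 6.69 CPM. S100a14 and S100a16 had log2 ratios of 0.67 and 0.52. Il1f6 and Il1f8, cytokines of the interleukin-36 group, rested on 2 and 3 UMIs in control with ratios of 9.10 (2.47 to 75.9) and 7.52 (2.53 to 36.8). Il1f5, their antagonist, had 112 and 213 CPM. Il1b had 15.1 and 1.35 CPM from 30 and 21 UMIs, and in spinous keratinocytes it went the other way, with 0.594 and 8.80 CPM, and Il1b and S100a9 were seen in 2.62% of control members. Il1r2, a decoy receptor, was called lower at 33.2 and 16.2 CPM, and Il1rl2, the interleukin-36 receptor, had a log2 ratio of -0.42.

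The lists with medians below that of all genes were Notch, metallothioneins, the basal keratins and the cell cycle. The basal keratin median of -0.54 was -0.08 at a rule limit of 20 per 10000, above the -0.27 of all genes there, and -1.29 with doublets removed. All 8 measured Notch genes had log2 ratios under 0 and their median was -0.62. Most measured genes also had ratios under 0, with a median of -0.29, so this count says little about the list. Jag2, a ligand, had 34.7 and 15.97 CPM (ratio 0.461, 0.351 to 0.611) and Heyl, a target, 9.05 and 2.51 CPM, both called lower, while the receptors Notch2 and Notch3 had log2 ratios of -0.27 and -0.39. The Notch median was -0.23 with TMM factors, -0.34 with inner root sheath members left out and -0.04 when cells were thinned before the rule, where it was above the -0.07 of all genes. Metallothioneins bind zinc and copper. Mt1 had 701 CPM (665 to 739) in control against 334 CPM with TP, for a ratio of 0.476 (0.449 to 0.506), Mt2 had 315 and 142 CPM, and Mt4, the one of stratified epithelia, had 1055 and 823 CPM. The median of these 3 was -1.07, and -0.68 with TMM factors.

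Of 14 cell cycle genes 6 were called lower, with a median of -0.92, but the median turned to 0.37 when cells were thinned before the rule and to 0.29 with the profile of all cells subtracted. Mki67 had 143 CPM in control against 31.5 CPM with TP, for a ratio of 0.221 (0.190 to 0.256), and Top2a 129 and 42.8 CPM. Both were more abundant over all kept cells, with Mki67 at 519 and 225 CPM, and after thinning Mki67 was seen in 9.38% of control and 4.36% of TP members against 15.8% and 8.38% of fibroblasts. The share of members was thus below that of fibroblasts in each library, and no difference in cycling is read from it. Cdkn1a, a cell cycle inhibitor and the most abundant gene of the list, had 697 and 891 CPM. Ccnb1 and Ccnb2 were called lower but turned higher once the profile of all cells was subtracted, at the unlike scales given above.

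Of 9 measured steroid response genes none was called higher and Nr3c2, the mineralocorticoid receptor, was called lower from 17 UMIs in control (8.54 and 2.51 CPM). Dusp1 and Tsc22d3, which glucocorticoids induce, had log2 ratios of 0.29 and -0.39, and the list's median was -0.20.

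**Figure D3:**
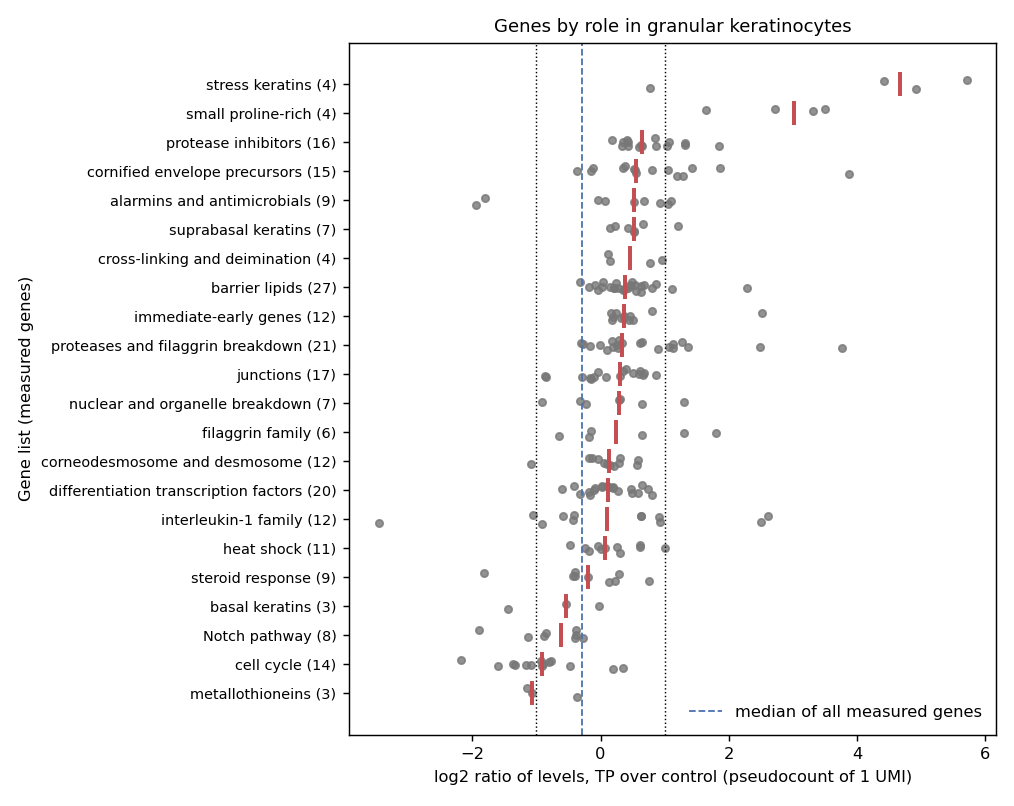
Each point is 1 measured gene of a role list, at its log2 ratio of summed levels in granular keratinocytes, TP over control, with the list's median as a vertical bar and dotted lines at 2-fold. The dashed line is the median of all measured genes, -0.29, with metallothioneins (-1.07) below it. Stress keratins (4.67) and small proline-rich genes (3.02) lie above it. In these lists Krt6a, Krt6b, Sprr2d and Sprr2h were measured only through their UMIs in TP. The medians of the lists thus follow in part from the limit on UMIs. Over the alternatives run they ranged from 1.72 to 5.17 for stress keratins and from 0.70 to 3.89 for small proline-rich genes.

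Across all genes with at least 200 UMIs, and a level, in the library where they were higher, no lower than over all kept cells, the 15 with the highest ratios included 9 already given: Krt6b, Krt16, Crct1, Klk6, Sprr1b, Sprr1a, Klk9, Lor and Flg. The others were Ly6m (2.51 and 16.6 CPM), Myzap (7.04 and 33.9 CPM), the epithelial transcription factor Ehf (9.55 and 38.4 CPM, ratio 4.03, 2.56 to 6.74), Slurp1, the secreted regulator of the surface that is mutated in mal de Meleda (41.7 and 157 CPM, ratio 3.77, 3.03 to 4.75), creatine kinase Ckb (7.04 and 27.7 CPM) and Areg, a ligand of the EGF receptor (17.1 and 64.6 CPM, ratio 3.78, 2.69 to 5.49). Of these 15 genes 9 (Krt6b, Ly6m, Klk6, Crct1, Krt16, Klk9, Myzap, Ckb and Ehf) had at most 19 UMIs in control and met the limit of 200 only through TP, so their place in the ranking follows in part from the limit. Areg had 15.5 and 52.9 CPM in spinous keratinocytes, while Myzap went the other way there with 6.83 and 4.58 CPM.

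Among the 15 such genes with the lowest ratios, Txnip, an inhibitor of thioredoxin, had 86.0 and 31.7 CPM, a ratio of 0.369 (0.309 to 0.441), and Sox6, a transcription factor, had 183 and 84.7 CPM, a ratio of 0.463 (0.412 to 0.521). Mlana, a melanocyte gene, had 59.8 and 10.1 CPM, came from 7.42% and 6.31% of members and moved with the other melanocyte markers above. It was the other way round, at a log2 ratio of 0.32, when the rule's limit was raised to 20 per 10000. Ccl8, a chemokine, had 36.7 and 15.1 CPM from 2.18% of control members and 17.7% of TP members, and was higher in TP in spinous keratinocytes at 4.33 and 24.3 CPM. The other genes, C2cd5, Pik3c2g, Leng8, Tnfrsf11a, Shroom4, Arhgap44, Uvssa, Ccdc122, Abcc5 and Prkd2, had ratios from 0.405 to 0.474, and Krt15 was also among the 15.

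Genes were also ranked by how far granular keratinocytes exceeded spinous ones in the library where the excess was smaller. This is a description, since the ranking asks for a high ratio in both libraries and the cells were chosen by related genes. Besides the rule genes Flg, Flg2 and Hrnr, the remaining genes among the first 10 were Lor, 34.9-fold in control and 34.1-fold in TP, the serpin Serpina12 (30.9 and 31.3), arginase Arg1 (25.9 and 26.2), Wfdc21 (23.4 and 34.1), the acid phosphatase Acp7 (16.9 and 14.2), the phosphate transporter Slc34a2 (29.6 and 14.2) and Ly6m, which had no UMI in control spinous keratinocytes. Within granular keratinocytes Arg1 (34.7 and 42.6 CPM, ratio 1.23, 0.957 to 1.60) and Acp7 (31.7 and 42.8 CPM) differed little between control and TP, while Slc34a2 had 14.6 and 30.6 CPM, a ratio of 2.10 (1.44 to 3.17).

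**Figure D4:**
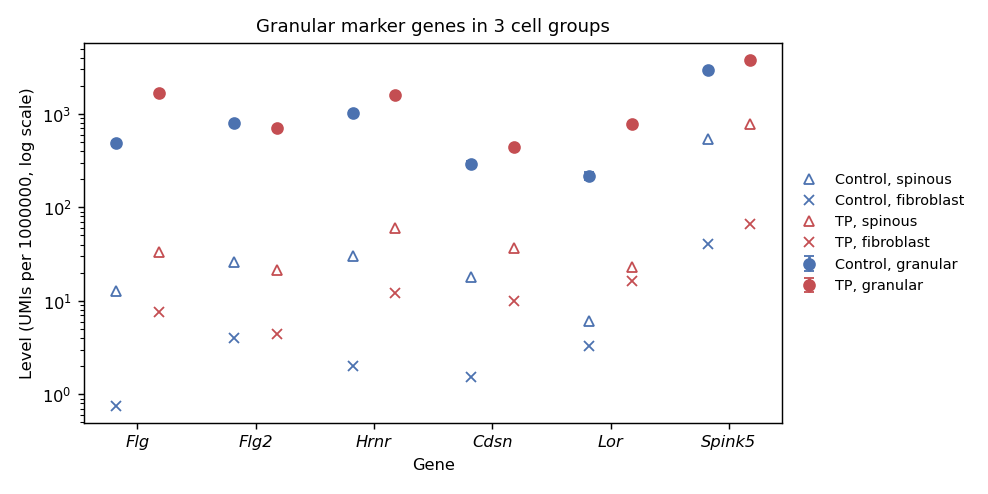
Level (CPM, log scale) of the 6 marker genes in granular keratinocytes (filled circles, with 95% intervals of counting error that are mostly smaller than the symbol), spinous keratinocytes (triangles) and fibroblasts (crosses) of control and TP. The choice of cells fixes that the 4 rule genes lie highest in granular keratinocytes, and Lor and Spink5, not used by the rule, also lie highest there in both libraries. Flg and Lor are higher in TP, Flg2 is not, and fibroblasts give Lor at 3.28 and 16.5 CPM.

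The same ratios in neighbouring keratinocytes are set beside them without a test. In spinous keratinocytes 349 of 14164 measured genes passed 2-fold upward in TP and 1102 downward, and in basal keratinocytes 315 and 218 of 9842. The groups come from the same 2 libraries, and the choice of basal cells carries the limit given with their share. Of the 156 genes higher in granular keratinocytes that were measured in spinous ones, 81 were also higher there (81 of 349 spinous ones), and of 938 lower genes 249 were also lower (249 of 1102). Flg had a ratio of 2.66 (2.35 to 3.01) in spinous keratinocytes at a level of 12.6 and 33.6 CPM, and Lor 3.75 at 6.15 and 23.1 CPM. Spinous keratinocytes did not meet the rule, so it limits their Flg, and the Flg ratio there is a description only. Fibroblasts gave Flg at 0.758 and 7.58 CPM and Lor at 3.28 and 16.5 CPM. After thinning, Lor was seen in 0.529% and 2.79% of spinous keratinocytes, against 0.470% and 1.83% of fibroblasts. The part of free RNA in spinous Flg and Lor was not tested. Sprr1a had 6.78 at 23.7 and 160 CPM and Klk7 had 2.65 at 85.3 and 226 CPM, close to the ratios in granular keratinocytes, while Crct1 had 0.679 and 2.82 CPM, a ratio of 4.16 on few UMIs.

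The shared range of depth was also applied to other genes. In members of 5000 to 20000 UMIs Krt16 had 3.40 and 196 CPM, a ratio of 57.7 (24.6 to 178), Sprr1a had 21.1 and 255 CPM, a ratio of 12.1 (8.46 to 17.9), and Slurp1 had 46.2 and 222 CPM, a ratio of 4.797 (3.74 to 6.24). Krt15 had 419 and 95.1 CPM, a ratio of 0.227 (0.199 to 0.259), and Mt1 had 682 and 209 CPM, a ratio of 0.306 (0.278 to 0.336). Krt10 had a ratio of 1.37 (1.35 to 1.39).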

How the data were processed

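Skin of 2 pools, control and TP, each of 15 mice, was read as droplet libraries. Per the submitters' processing notes, the authors used Cell Ranger 8.0.1 and mm10, and the deposited values are raw UMI counts per gene and droplet, with no normalization. Reads shared by near copies of a gene are not counted by that program. The control library held 45709 droplets and the TP library 25931, of which 42244 and 20045 were kept, with medians of 2162 and 5166 UMIs. Counts were summed over the cells of a group in each library and scaled to CPM (pandas 2.3.3, numpy 2.4.6 and scipy 1.17.1 under Python 3.11.15). TMM factors, from edgeR 4.0.16, served 1 alternative. Intervals at 95% are exact and two-sided (Poisson for a level, Clopper-Pearson for a share, conditional on the total for a ratio), and the ratio was tested on simulated data. The simulated counts varied by counting error alone, without spread between cells. For a count of 0 the limit given is a floor of 3 counts per library, which is lower than the upper end of the two-sided interval. Fibroblasts were cells with at least 3 of 5 fibroblast genes and 20 or more per 10000 UMIs, and basal cells had Krt5 and Krt14 at 50 or more and Krt1 and Krt10 under 10. Doublets were called by a reimplemented method that compares droplets with artificial doublets and marks 7.5% of droplets, and stayed in unless stated. Shares of cells with a UMI were also given after thinning every cell to 1000 UMIs. Gene positions are those of GRCm38.p6 RefSeq.

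The members and the gene lists were chosen with earlier results of these data known. Named genes are the 6 markers, in each role list the genes past 2-fold (up to 4 each way) and the 2 most abundant, the 15 largest rises and falls among genes of at least 200 UMIs with a symbol and a level at least that of all cells, and the 10 genes highest over spinous cells. Names outside this rule (Krt1, Krt71, Dct, Cdh5, Hba-a1, Hbb-bs, Hbb-bt, Cd74, Krt79) come from the marker lists.

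Alternatives were other limits of the rule, doublets or inner root sheath members left out, other mitochondrial limits, thinning, TMM factors, other pseudocounts and filters, equal weights per cell and subtraction of the profile of all cells. 2 more, cells of 5000 to 20000 UMIs and doublets with inner root sheath members left out together, were chosen after seeing the data.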

Additional observations from a re-analysis of the deposited data

Results flagged for a closer look

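Droplets over the mitochondrial limit were left out of the comparisons, apart from the alternative limit of 20%. In TP 35 of 5844 of them met the rule for granular keratinocytes (0.599%, 0.418 to 0.832), above the 4 of 3465 in the control library (0.115%, 0.0315 to 0.295). The result stands here because the signal lies in data outside the main measurement and is above that of the control library, with no test. Both shares lay below those among kept cells, 3.72% in TP and 0.542% in control, where TP was also the higher. With the limit at 20% in place of 10%, the ratio of shares was 6.26.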

How the results depend on the processing

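No paired analysis was possible because each condition has 1 library and the labels carry no replicate numbers, and for the same reason no replicate could be left out. The ratio of shares, 6.86, was 8.78 with a limit of 20 per 10000 UMIs, 8.08 with at least 3 of the 4 genes, 1.43 among cells of 5000 to 20000 UMIs and 2.71 per epidermal keratinocyte, and lay between 6.18 and 7.90 under the other 6 alternatives run for it. The 162 higher and 939 lower genes became 458 and 307 with TMM factors, 671 and 508 with the profile of all cells subtracted, 88 and 104 after thinning to 1000 UMIs, 44 and 85 with a pseudocount of 0.1 per 10000, 262 and 6797 among genes with at least 1 UMI and 98 and 247 among those with at least 200. The subtracted profile was scaled to 20.5% in control and 4.04% in TP. Among cells of 5000 to 20000 UMIs 403 genes were lower. Of 68 named genes past 2-fold, 22 stayed past it in the same direction under every alternative run and 62 kept their direction. The direction turned, in log2 ratio, for Mlana at a limit of 20 (0.32), Slpi in cells of 5000 to 20000 UMIs (-0.76), Serpinb6c (-0.31) and Il1r2 (0.11) after thinning, and Ccnb1 (0.33) and Ccnb2 (1.18) with the profile of all cells subtracted. The cause was not tested. With 1989602 control UMIs, a gene at 0 has a floor of 3 counts, or 1.51 CPM.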
